A study of Mus musculus with 5 samples.

Results

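The 7 mRNAs mt-Nd1, mt-Nd2, mt-Nd3, mt-Nd4, mt-Nd4l, mt-Nd5 and mt-Nd6, which the mitochondrial genome encodes for respiratory complex I, were examined by ribosome profiling of mESCs, mouse embryonic stem cells kept pluripotent in serum and the cytokine LIF. They were picked by gene symbol, as 7 of 135276 transcripts in the count table and 7 of the 13 mRNAs of the mitochondrial genome. The family was chosen on the readout, since the lower count of mt-Nd4l in AHARIBO libraries was known when it was proposed. The differences between methods in these 7 mRNAs are therefore a description and carry no p-value. Standard RIBO-seq was run on 3 libraries, in which ribosomes were spun through 30% sucrose. AHARIBO RIBO-seq was run on 2 libraries, in which nascent peptides carrying L-azidohomoalanine (AHA), an analogue of methionine, were clicked to biotin (50 µM of the conjugate) and pulled down with magnetic beads, with no cushion described. The labels give no genotype, call all 5 libraries untreated biological replicates, and the methods restate no AHA dose for ribosome profiling. All 5 lysates came from cells exposed to cycloheximide and received 1.3 U of RNase I during 45 min, after which fragments of 25 to 35 nt were sequenced in 50 bp runs. The question behind the comparison is how fragments from ribosomes with AHA-labeled nascent chains differ from those of all pelleted ribosomes.

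Complex I takes electrons from NADH and pumps protons across the inner mitochondrial membrane, and its mitochondrially encoded subunits form the core of the membrane arm. Nuclear genes supply its other subunits. The mitochondrial mRNAs have no cap and almost no untranslated leader, they are read by mitochondrial ribosomes with a genetic code in which AUA means methionine, and cycloheximide blocks cytosolic but not mitochondrial elongation. All but mt-Nd6 lie on the same strand, and mt-Nd4l and mt-Nd4 are carried by a single bicistronic mRNA.

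Depth after removal of duplicate reads was 6403651 to 11150527 reads per library, and the 7 mRNAs together held 705 to 1571 of them. All 8 embryonic stem cell markers examined were present, at mean levels from 71.4 to 247 CPM (read counts scaled to library size), with Pou5f1 highest. The 3 endoderm, 2 mesoderm and 3 fibroblast markers stayed between 0.0716 and 2.93 CPM. Of 4 neural markers, Tubb3 stood at 34.9 CPM and the others at or below 3.82 CPM.

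The starts of the 7 mRNAs are shown because they differ in the start codon used. They are in the order of the mitochondrial genome (GRCm38, 16299 nt), with the annotated start codon in capitals.
mt-Nd1: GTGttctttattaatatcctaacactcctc
mt-Nd2: ATAaatcctatcacccttgccatcatctac
mt-Nd3: ATTaacctgtacactgttatcttcattaat
mt-Nd4l: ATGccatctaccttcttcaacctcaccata
mt-Nd4: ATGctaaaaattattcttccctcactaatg
mt-Nd5: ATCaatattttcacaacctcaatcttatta
mt-Nd6: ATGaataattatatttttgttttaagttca
Reference sequences from the mouse genome and the deposited transcript lengths were identical in length for all 7. The mRNAs mt-Nd4l, mt-Nd4 and mt-Nd6 start with the universal codon and the other 4 with GTG, ATA, ATT or ATC. They span chrM:2751-3707 (mt-Nd1, 957 nt), chrM:3914-4951 (mt-Nd2, 1038 nt), chrM:9459-9806 (mt-Nd3, 348 nt), chrM:9877-10173 (mt-Nd4l, 297 nt), chrM:10167-11544 (mt-Nd4, 1378 nt), chrM:11742-13565 (mt-Nd5, 1824 nt) and chrM:13552-14070 on the minus strand (mt-Nd6, 519 nt). The table lists them as ENSMUST00000082392.1 (mt-Nd1), ENSMUST00000082396.1 (mt-Nd2), ENSMUST00000082411.1 (mt-Nd3), ENSMUST00000084013.1 (mt-Nd4l), ENSMUST00000082414.1 (mt-Nd4), ENSMUST00000082418.1 (mt-Nd5) and ENSMUST00000082419.1 (mt-Nd6). Each is a gene of a single exon annotated as protein coding over its whole length. mt-Nd4 holds no complete stop codon, which in mitochondria is made by adding the poly(A) tail.

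mt-Nd4l is shown whole because it differed most between the methods and because nearly all of it recurs in the nuclear genome. The capitals mark its 8 methionine codons, which are where AHA could enter the peptide.
mt-Nd4l: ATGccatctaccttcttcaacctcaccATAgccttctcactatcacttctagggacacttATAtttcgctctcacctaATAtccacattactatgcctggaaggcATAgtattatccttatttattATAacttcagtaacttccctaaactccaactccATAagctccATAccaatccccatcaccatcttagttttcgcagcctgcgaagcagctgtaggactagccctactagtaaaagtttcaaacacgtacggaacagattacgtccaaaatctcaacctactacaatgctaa
Its last 7 nt are also the first 7 nt of mt-Nd4, shown in capitals in the stretch across the junction at chrM:10149-10191.
junction: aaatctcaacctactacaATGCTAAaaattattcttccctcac
A second overlap joins the strands. The last 14 nt of mt-Nd5 are the complement of the last 14 nt of mt-Nd6, in capitals below at chrM:13540-13577, read on each strand.
mt-Nd5 end: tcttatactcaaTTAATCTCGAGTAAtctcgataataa
mt-Nd6 end: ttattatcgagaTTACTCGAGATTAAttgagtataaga
mt-Nd6 also differs in base composition, with 28.1% G and 5.97% C, where the 6 plus-strand members had 7.996% to 11.6% G and 22.1% to 30.0% C. Methionine codons made up 10.4% of the codons of mt-Nd2, 8.16% of mt-Nd4l, 8.06% of mt-Nd4, 6.60% of mt-Nd1, 6.42% of mt-Nd5, 6.40% of mt-Nd6 and 5.22% of mt-Nd3.

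All 7 mRNAs had lower CPM in AHARIBO than in standard RIBO-seq, but to unequal degrees. mt-Nd4l was lowest relative to standard RIBO-seq, at 4.57-fold, followed by mt-Nd3, mt-Nd1 and mt-Nd2 at 2.72-fold to 2.95-fold. mt-Nd4, mt-Nd5 and mt-Nd6, the members that lie after mt-Nd4l on the genome, differed least, at 1.70-fold to 1.87-fold. The mRNA beyond them, mt-Cytb at chrM:14145-15288, is not a member and was 4.09-fold lower. In every member both AHARIBO libraries lay below all 3 standard libraries, which held for 16.5% of all 66972 transcripts tested, and nothing is read from this count because the contrast chose the family. The contrast sets 2 ways of isolating footprints from mESCs side by side. Bulk counts cannot tell fewer cells from less RNA per cell, nor a change of mRNA from a change of ribosomes on it.

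In what follows, levels are CPM per kb of transcript and libraries are given in the order standard replicates 1, 2 and 3, then AHARIBO replicates 1 and 2. The differences are log2 fold changes, AHARIBO over standard, with the standard error (SE) of the edgeR fit. mt-Nd1, the subunit at the joint between the membrane arm and the matrix arm near the quinone site, stood at 28.9, 28.95, 27.7, 9.51 and 10.4 CPM per kb. The 3 standard libraries were almost level, and both AHARIBO libraries were near 10 CPM per kb. Its log2 fold change was -1.52 ± 0.12 (SE, n = 3 and 2 libraries), from 167 to 251 reads in standard and 100 to 104 in AHARIBO libraries.

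The 3 small subunits mt-Nd3, mt-Nd4l and mt-Nd6 sit between the pump modules and the joint. mt-Nd3 stood at 20.3, 20.9, 19.1, 6.79 and 6.89 CPM per kb. This mRNA rests on the fewest reads, 42 to 66 in standard and 24 to 27 in AHARIBO libraries, and its log2 fold change of -1.56 ± 0.21 had the largest SE of the 7. mt-Nd4l stood at 53.6, 49.8, 60.4, 11.2 and 12.4 CPM per kb. It was the densest member in each standard library and sat among the others in both AHARIBO libraries, with a log2 fold change of -2.19 ± 0.16. mt-Nd6 stood at 29.4, 32.1, 30.0, 17.9 and 14.6 CPM per kb. It was the densest member in both AHARIBO libraries, and its log2 fold change was -0.90 ± 0.13.

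mt-Nd2, mt-Nd4 and mt-Nd5 encode the large antiporter-like subunits that translocate protons. mt-Nd2 was the sparsest member in all 5 libraries, at 12.7, 16.1, 14.1, 5.90 and 4.52 CPM per kb, with a log2 fold change of -1.44 ± 0.15. mt-Nd4 stood at 20.3, 25.2, 19.5, 14.2 and 11.2 CPM per kb, with a log2 fold change of -0.77 ± 0.11. Its replicates spread by a coefficient of variation of 14.2% in standard and 16.6% in AHARIBO RIBO-seq. mt-Nd5, the longest member, stood at 25.1, 30.5, 29.1, 15.8 and 14.6 CPM per kb and differed by -0.89 ± 0.09 on the log2 scale. It carried the most reads, 335 to 504 in standard and 266 to 330 in AHARIBO libraries.

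**Figure D1:**
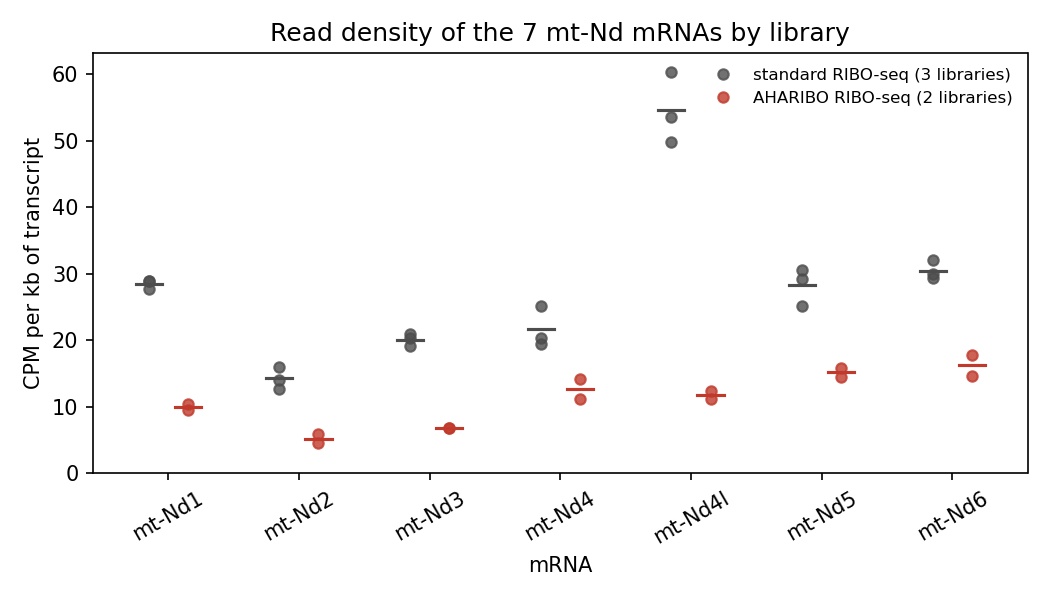
Read density (CPM per kb of transcript, linear axis from 0) of each mt-Nd mRNA in the 3 standard (grey) and 2 AHARIBO (red) libraries, one point per library with a bar at the group mean. mt-Nd4l stands apart in standard RIBO-seq with a mean of 54.6 CPM per kb, and at 11.8 CPM per kb it does not in AHARIBO RIBO-seq.

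The order of mean density thus changed between the methods. In standard RIBO-seq it ran mt-Nd4l (54.6 ± 5.35 CPM per kb, SD, n = 3), mt-Nd6 (30.5 ± 1.45), mt-Nd1 (28.5 ± 0.721), mt-Nd5 (28.3 ± 2.80), mt-Nd4 (21.6 ± 3.07), mt-Nd3 (20.1 ± 0.904) and mt-Nd2 (14.3 ± 1.67). The ranges of mt-Nd1 and mt-Nd5, of mt-Nd5 and mt-Nd4, and of mt-Nd4 and mt-Nd3 overlapped, and the other neighbors did not. In AHARIBO RIBO-seq the order was mt-Nd6 (16.2 ± 2.30 CPM per kb, SD, n = 2), mt-Nd5 (15.2 ± 0.895), mt-Nd4 (12.7 ± 2.11), mt-Nd4l (11.8 ± 0.881), mt-Nd1 (9.97 ± 0.655), mt-Nd3 (6.84 ± 0.0698) and mt-Nd2 (5.21 ± 0.975). There mt-Nd6 overlapped mt-Nd5 and mt-Nd4 overlapped mt-Nd4l. Moving down the order, mt-Nd4l and mt-Nd1 gave way to mt-Nd5 and mt-Nd4, while mt-Nd3 and mt-Nd2 stayed last in all 5 libraries.

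The composition of the mt-Nd reads gives the same counts on a scale that does not depend on library size, and it is likewise a description. mt-Nd4l made up 10.4% (95% Wilson interval 8.89% to 12.1%), 8.53% (7.25% to 10.01%) and 11.1% (9.33% to 13.2%) of the mt-Nd reads in standard replicates 1, 2 and 3. In AHARIBO replicates 1 and 2 it made up 4.23% (3.09% to 5.75%) and 5.25% (3.83% to 7.15%). These intervals cover counting error only. The share of mt-Nd5 was 31.7% ± 1.55 (SD, n = 3) in standard and 37.2% ± 0.723 (SD, n = 2) in AHARIBO RIBO-seq. That of mt-Nd4 was 18.3% ± 1.68 and 23.5% ± 2.07, and that of mt-Nd1 was 16.8% ± 1.11 and 12.9% ± 1.85. The density of mt-Nd5 relative to mt-Nd6, its neighbor on the other strand, was 0.926 ± 0.0620 in standard and 0.941 ± 0.0778 in AHARIBO RIBO-seq, a gap smaller than either SD. Likewise mt-Nd1 relative to mt-Nd2 was 2.01 ± 0.237 and 1.96 ± 0.492.

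mt-Nd4l and mt-Nd4 lie on the same mRNA, and the values along it are likewise a description. Per nt, mt-Nd4l was 2.64, 1.98 and 3.10 times as dense as mt-Nd4 in standard libraries and 0.787 and 1.11 times as dense in AHARIBO libraries. The lowest standard value exceeded the highest AHARIBO value. Nothing is read from this separation, because the low count of mt-Nd4l in AHARIBO libraries chose the family. mt-Nd4 could be divided further, because its first 876 nt, but not its last 502 nt, recur in the nuclear transcript Gm28439, whose count therefore approximates the reads on that segment. On this basis the first segment held 19.6, 23.4, 17.4, 10.6 and 8.21 CPM per kb. The last segment held 21.6, 28.1, 23.1, 20.6 and 16.5 CPM per kb, so that the AHARIBO libraries came close to the standard ones there and 20.6 lay just below the lowest of them. The ratio of the last to the first segment was 1.11, 1.20 and 1.33 in standard and 1.94 and 2.01 in AHARIBO libraries, with no overlap. From 5′ to 3′ the log2 fold changes were -2.19 for mt-Nd4l and, as ratios of means, -1.10 for the first and -0.39 for the last segment of mt-Nd4. The split rests on 72 to 186 reads in the first and 73 to 128 in the last segment, and reads that cross its edge or the gene junction cannot be placed.

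**Figure D2:**
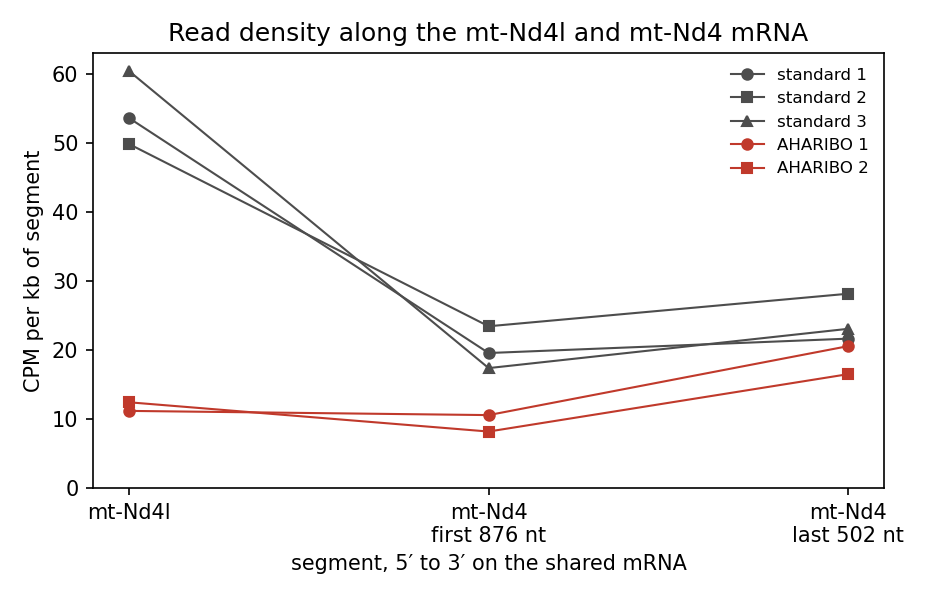
Read density (CPM per kb of segment, linear axis from 0) along the bicistronic mRNA, with 1 line per library, standard in grey and AHARIBO in red. The lines lie far apart in mt-Nd4l (49.8 to 60.4 against 11.2 to 12.4) and approach each other in the last 502 nt of mt-Nd4 (21.6 to 28.1 against 16.5 to 20.6).

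Sequence shared with the nucleus was counted as the percent of a member's windows of 30 nt, about a footprint, that occur on the same strand in another transcript of the table. The rest of the nuclear genome was not searched. No window of mt-Nd1 was shared. The values were 8.37% for mt-Nd6, 14.1% for mt-Nd2, 17.5% for mt-Nd5, 62.8% for mt-Nd4, 98.1% for mt-Nd3 and 98.9% for mt-Nd4l. The 3 nuclear copies, all annotated as unprocessed pseudogenes, lie side by side on the minus strand of chromosome 1 (GRCm38). Gm10222, at chr1:24612407-24612700, matches nt 1 to 294 of mt-Nd4l without a difference. Gm28439, at chr1:24611535-24612410, matches nt 1 to 876 of mt-Nd4 without a difference. Gm28438, at chr1:24612775-24613119, matches mt-Nd3 at 344 of 345 nt, the difference being T3C counted from 1 at the 5′ end of mt-Nd3, inside its start codon.

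The counts of the copies followed those of the members. Gm10222 held 139, 134, 111, 38 and 36 reads, against 142, 134, 113, 38 and 37 for mt-Nd4l, or 97.3% to 100% of them. Gm28438 held 68, 70, 43, 28 and 25 reads, against 63, 66, 42, 27 and 24 for mt-Nd3. It exceeded the member in all 5 libraries, by 1 to 5 reads. With counts this close, shared reads appear to have entered both rows, and they cannot be assigned to the mitochondrial or the nuclear copy from the table. Gm28439 held 56.8% to 61.2% of the reads of mt-Nd4 in standard but 46.5% and 47.3% in AHARIBO libraries, which is the split described above.

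Partial relatives with more differences also had counts. Gm13339 on chromosome 2 (96.7% identical to part of mt-Nd2) held 13.2% to 14.4% of the reads of mt-Nd2 in standard and 22.9% and 23.4% in AHARIBO libraries. For mt-Nd5, Gm4076 on chromosome 13 (94.9% identical) held 17.3% to 18.8% across the 5 libraries, and Gm11407 on chromosome 4 (92.5% identical) held 11.98% to 17.9% in standard and 20.6% and 21.1% in AHARIBO libraries. Gm11408 on chromosome 4 (93.6% identical to mt-Nd6) held 6 to 16 reads. Set beside the shared sequence, the log2 fold changes were -2.19 for mt-Nd4l (98.9% shared), -1.56 for mt-Nd3 (98.1%), -0.77 for mt-Nd4 (62.8%), -0.89 for mt-Nd5 (17.5%), -1.44 for mt-Nd2 (14.1%), -0.90 for mt-Nd6 (8.37%) and -1.52 for mt-Nd1 (0%). The 2 most shared members thus had the largest differences, and within mt-Nd4 the shared segment differed by -1.10 and the unshared by -0.39, while mt-Nd1, with no shared window, differed about as much as mt-Nd3. Among the other 6 mitochondrial mRNAs, the least shared, mt-Cytb (7.35%), and the most shared, mt-Co2 (100%), both differed by -2.03. Between them, mt-Atp8 (8%) and mt-Co1 (64.8%) both differed by -1.84, mt-Atp6 (99.5%) by -1.87 and mt-Co3 (99.9%) by -1.91. Large differences thus also occurred in mRNAs with little shared sequence. The part of shared reads in these differences was not tested.

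**Figure D3:**
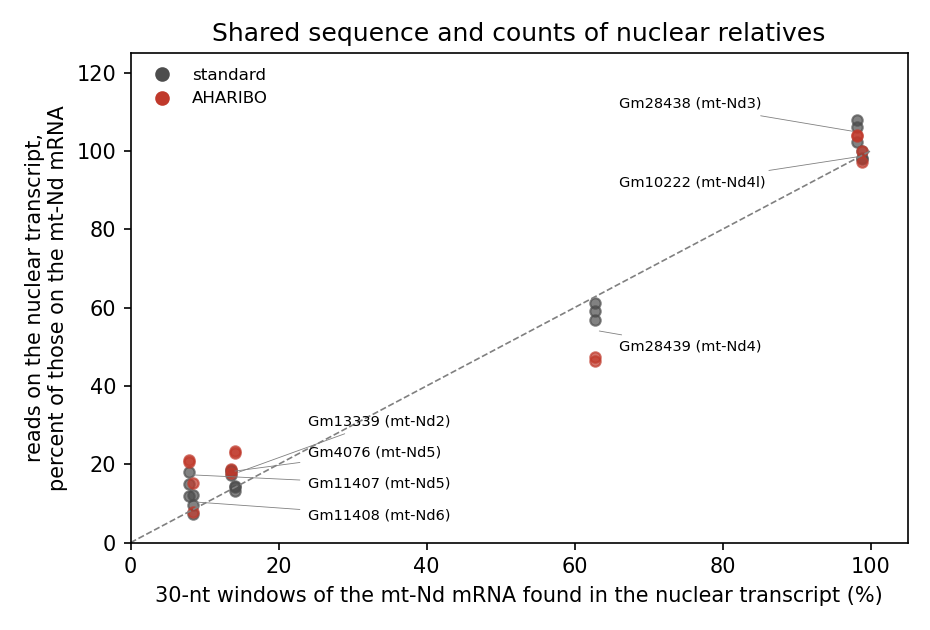
Percent of an mt-Nd mRNA's 30-nt windows found in a nuclear transcript (x axis) against reads on that transcript as a percent of those on the mt-Nd mRNA (y axis), 1 point per library, with the dashed line at equality. Gm10222 and Gm28438 lie near 100%, and the AHARIBO points of Gm28439 lie at 46.5% and 47.3%, below the standard ones.

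The members can also be ordered by other features. By strand, the only minus-strand member, mt-Nd6, had a log2 fold change of -0.90, almost that of the plus-strand mt-Nd5 (-0.89), so with 1 member on that strand no strand difference could be tested. By methionine content, mt-Nd2 had the highest share of codons and mt-Nd3 the lowest, and they differed between the methods by -1.44 and -1.56. By length, the shortest members mt-Nd4l and mt-Nd3 had the largest differences and the longest members mt-Nd4 and mt-Nd5 the smallest, but mt-Nd6, at 519 nt, was placed with the long ones. These are descriptions over 7 mRNAs of the same libraries.

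The other 6 mitochondrial mRNAs, mt-Co1, mt-Co2, mt-Co3, mt-Atp6, mt-Atp8 and mt-Cytb, which encode subunits of cytochrome oxidase, ATP synthase and complex III, were also lower in AHARIBO RIBO-seq. With duplicates removed, their log2 fold changes spanned -2.03 to -1.84 (median -1.89). The 7 mt-Nd mRNAs spanned -2.19 to -0.77 (median -1.44), beside a median of 0.00 over all transcripts tested. On these counts mt-Nd4l was the only member at or below the range of the 6. Duplicate removal took 81.1% to 88.6% of mt-Atp8 reads in standard but 61.2% and 65.9% in AHARIBO libraries. The range of the 6 with duplicates kept is not given here. The mt-Nd mRNAs held a larger part of the mitochondrial mRNA reads in AHARIBO RIBO-seq, 37.5% and 35.25%, than in standard RIBO-seq, 24.8%, 26.7% and 23.4%. The mitochondrial rRNAs did not share this direction. mt-Rnr1, of the small subunit, had 186, 192 and 253 CPM in standard and 228 and 312 CPM in AHARIBO libraries, a log2 fold change of 0.37 ± 0.10 (adjusted p = 0.0157, edgeR). The groups overlapped, and the log2 fold change was 0.13 without AHARIBO replicate 2 and 0.58 without AHARIBO replicate 1. The adjusted p was 0.508 without AHARIBO replicate 2, 0.207 without standard replicate 1, 0.0661 without standard replicate 2 and 0.579 with DESeq2. mt-Rnr2, of the large subunit, had 245, 258 and 314 CPM in standard and 276 and 368 CPM in AHARIBO libraries, also overlapping, with a log2 fold change of 0.24 ± 0.09 (adjusted p = 0.111, edgeR). That of mt-Rnr2 was 0.02 without AHARIBO replicate 2, and it passed the threshold without AHARIBO replicate 1 (0.44, adjusted p = 0.000172), without standard replicate 3 (adjusted p = 0.0253), with no filter (adjusted p = 0.0244) and with library size scaling (adjusted p = 0.0398). Reads on both rRNAs, which are what the removal of rRNA reads left, numbered 0.738 ± 0.0725 per mitochondrial mRNA read in standard (SD, n = 3) and 2.90 ± 0.708 in AHARIBO RIBO-seq (SD, n = 2). Their part in the values of the mt-Nd mRNAs was not tested, and the cushion and the capture cannot be told apart as sources of any of these differences.

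**Figure D4:**
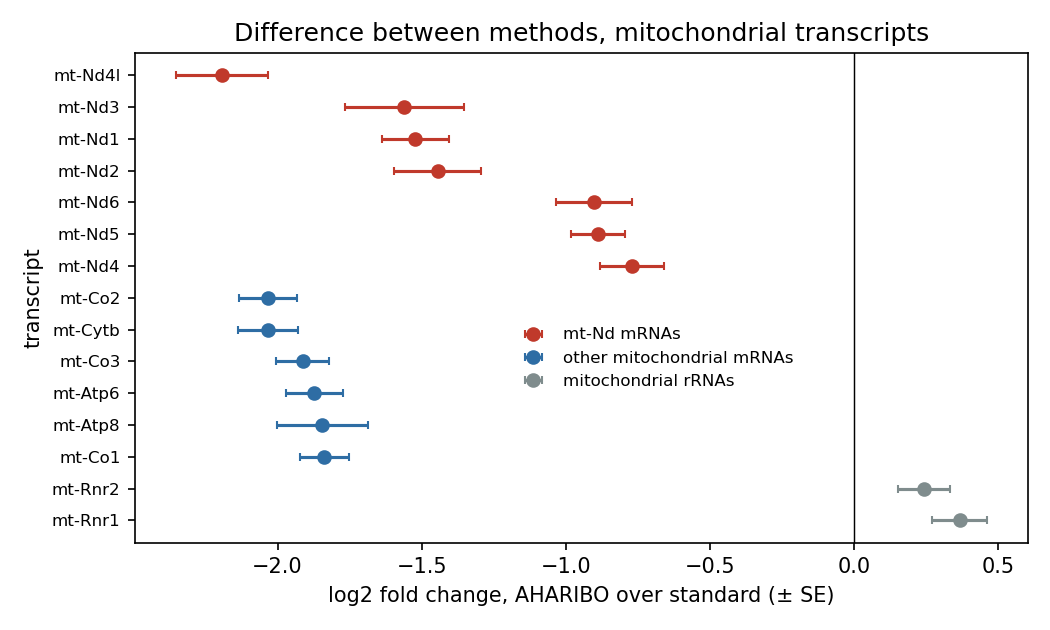
Log2 fold change, AHARIBO over standard RIBO-seq, with bars of ± 1 SE of the edgeR fit (3 and 2 libraries) for the 7 mt-Nd mRNAs (red), the other 6 mitochondrial mRNAs (blue) and the 2 mitochondrial rRNAs (grey), with a line at 0. The red points spread from -2.19 to -0.77, the blue ones from -2.03 to -1.84, and the rRNAs lie above 0.

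As a share of all reads, the 7 mRNAs made up 0.0152% (95% Wilson interval 0.0144% to 0.0160%), 0.0172% (0.0164% to 0.0181%) and 0.0159% (0.0149% to 0.0169%) in standard replicates 1, 2 and 3. In AHARIBO replicates 1 and 2 they made up 0.00806% (0.00755% to 0.00861%) and 0.00707% (0.00657% to 0.00761%). The mean of the standard libraries was 2.13 times that of the AHARIBO libraries. Duplicate removal, given as a description because it is computed from the counts that chose the family, had taken 8.52% ± 1.65 (SD, n = 3) of the mt-Nd reads in standard and 7.02% ± 1.09 (SD, n = 2) in AHARIBO RIBO-seq. This difference was smaller than the SD of the standard libraries. With the percentages of the 7 mRNAs averaged, each with equal weight, the difference was -2.45 percentage points, AHARIBO minus standard. Over all transcripts duplicate removal had taken 43.7%, 43.3% and 43.8% of the reads in standard and 47.7% and 44.9% in AHARIBO libraries, so that there both AHARIBO values were the higher ones.

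Of 36 nuclear subunit genes, each taken as its most abundant transcript, 4 were lower in AHARIBO RIBO-seq (adjusted p under 0.05 over all transcripts, edgeR) and 0 were higher, where 3.14% of 18679 genes were lower and 3.00% higher. The list median was -0.14 on the log2 scale, beside -0.02 over all genes, and 22 of the 36 had both AHARIBO libraries below all standard ones, as did 18.3% of all genes. An unadjusted p under 0.05 in edgeR was found for 14 of the 36, and for 21.4% of all genes. The 4 are accessory subunits. Ndufab1, which is also the mitochondrial acyl carrier protein, had 40.8, 37.0 and 40.1 CPM in standard and 30.4 and 29.9 CPM in AHARIBO libraries, a log2 fold change of -0.38 ± 0.09 (adjusted p = 0.00739). Ndufa11 (-0.37 ± 0.09, adjusted p = 0.00588), Ndufb2 (-0.40 ± 0.11, adjusted p = 0.0208) and Ndufb7 (-0.36 ± 0.10, adjusted p = 0.0205) also fell. Each of these differences was smaller than that of any mt-Nd mRNA. The call of all 4 was lost without AHARIBO replicate 1 and with DESeq2, each of which left 0, and without standard replicate 1 a single gene of the list was called.

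Of 15 complex I assembly factor genes tested (16 listed, 1 without a row under its symbol), 0 were called in the edgeR fit and 0 by DESeq2, where edgeR called 6.14% and DESeq2 0.637% of all genes. An unadjusted p under 0.05 in edgeR was found for 3 of the 15, and for 21.4% of all genes. Their median was -0.09 on the log2 scale. The most abundant were Acad9 (-0.09), Ecsit (-0.30), Foxred1 (-0.21) and Ndufaf3 (-0.30), with adjusted p from 0.125 to 0.674. A list of 22 nuclear genes for mitochondrial gene expression held mostly genes that transcribe, process or translate mitochondrial mRNA. Of the 22, 0 were called by either tool, and the list median was 0.07. An unadjusted p under 0.05 in edgeR was found for 7 of them, beside the 21.4% of all genes. Lrpprc, which stabilizes mitochondrial mRNAs, had a log2 fold change of 0.19 (adjusted p = 0.206, edgeR). The elongation factor genes Tufm (-0.18) and Tsfm (-0.10), and Oxa1l (0.09), which inserts mitochondrially made subunits into the inner membrane, had adjusted p of 0.204, 0.576 and 0.647.

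Among 5895 protein-coding nuclear genes with a mean of at least 10 CPM, the profile over the 5 libraries closest to the median profile of the 7 mRNAs was sought, as the Euclidean distance between centered log2 CPM values. The closest were the genes a (agouti, distance 0.721), 1810049J17Rik (0.741), Hnrnpa3 (0.797), A730015C16Rik (0.814) and Notum (0.840). The members themselves lay at 0.261 (mt-Nd2) to 1.05 (mt-Nd4l), and the other mitochondrial mRNAs at 0.631 to 0.856. The 5 nuclear genes had log2 fold changes from -0.79 to -0.56, of which that of a (-0.79) was close to that of mt-Nd4 (-0.77).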

How the data were processed

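For 3 standard and 2 AHARIBO libraries, the authors deposited transcript-level read counts, with duplicates removed and with duplicates kept, without normalization, and the deposited length of each transcript in nt. Per the labels and the methods, reads were trimmed with Trimmomatic 0.36, rRNA (SILVA) and tRNA reads were discarded, and the rest were aligned to Gencode M17 transcripts (GRCm38.p6) with STAR at default settings before antisense and duplicate reads were removed. The treatment of reads with several matching transcripts is not given in the sources used here. No molecular identifiers are described, so duplicate removal may also have discarded independent fragments. The number of columns of values not used was 0.

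CPM were computed from the duplicate-free counts with TMM factors over all transcripts (edgeR 4.0.16, R 4.3.3), and transcripts with 1 CPM in at least 1 library entered edgeR's quasi-likelihood test, with Benjamini-Hochberg adjustment over all of them. SEs are approximate, as the log2 fold change divided by the root of its F statistic. Names, biotypes, positions and sequences came from Gencode M21 and RefSeq (GRCm38.p6), where 134952 transcripts matched by identifier (99.8%). A nuclear copy shares at least 50% of windows of 30 nt on either side. The members, the gene lists and the rule for named genes (the 7, their copies, called genes of each list or otherwise its 4 most abundant, and the 5 most similar profiles) were chosen with earlier results of these data known. The exact permutation test planned for the duplicate percentage is not reported, since its counts chose the family. Alternatives were DESeq2 1.42.0, library size in place of TMM, other filters, a replicate block, duplicates kept, 1 transcript per gene, copies summed with members, other window lengths and leaving out each library. A count of 3, the smallest taken as shown by the depth, corresponds to 0.269 to 0.468 CPM and covers counting error only.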

Additional observations from a re-analysis of the deposited data

How the results depend on the processing

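The log2 fold changes of the 7 mt-Nd mRNAs kept their sign in 91 of 91 recomputations, and 90 moved by less than the replicate SD. The exception was mt-Nd4l with duplicates kept, at -2.38. The difference in the share of reads on the 7, AHARIBO minus standard, was -0.0220 percentage points with 1 transcript per gene in the denominator, -0.00555 with duplicates kept and -0.0112 with copies added, against -0.00853. These settings rescale both methods, and the standard mean was 2.10, 2.27 and 2.24 times the AHARIBO mean, against 2.13. Transcripts called numbered 272 with DESeq2 and 963 with the most abundant transcript of each gene, against 3021, and 510 to 3829 when a library was left out. Nuclear complex I calls numbered 0 with DESeq2, 1 with duplicates kept, 2 with the most abundant transcript of each gene and 0 to 4 when a library was left out, against 4. Calls among mitochondrial gene expression genes numbered 1 with library size scaling, 1 without a filter and 0 to 2 when a library was left out, against 0. The difference in duplicate percent was -0.672 to -2.32 when a library was left out. Shared windows at 25 and 35 nt were 18.2% and 11.4% for mt-Nd2, 21.3% and 14.5% for mt-Nd5, and 14.9% and 3.50% for mt-Nd6. The cause of these moves was not tested, except that 1 transcript per gene tests fewer features and leaving a library out leaves fewer samples.

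The labels do not tie same-numbered libraries of the methods to 1 culture, although standard RIBO-seq is described as run on the input. Their deviations correlated at 0.042 and -0.076, and a replicate block gave 1792 transcripts called and 3 nuclear complex I genes. Depth limits the mt-Nd values most in mt-Nd3, and 2 AHARIBO libraries limit every SE.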
